A study of Mus musculus with 2 samples.

Results

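Mir322, Mir503, Mir351, Mir542 and Mir450b are microRNA (miRNA) genes that lie side by side on the mouse X chromosome. These 5 genes were chosen by name and position, out of 1973 gene identifiers that were counted, and all 5 reached the minimum of 10 counts in both libraries that 294 genes met in all. The data came from the newborn thymus, where T cells mature. Both lobes, taken on postnatal day 0 from pup 2 (replicate 1) and pup 3 (replicate 2) of pregnancy 1 of strain B6NCrl, gave 1 small RNA library per pup, so the series holds 1 group and no contrast between conditions. No treatment or altered allele is named for either pup, sex was not collected, and both pups carry the same donor identifier. Replicate 1 held 2734133 counts on miRNA genes and replicate 2 held 1289151. Levels are CPM, the counts on the strand of the gene scaled to a library total of 1000000 such counts, and each ± is the SD of both libraries (n = 2).

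A miRNA is cut from a hairpin in a longer transcript, and either arm of the hairpin (5p or 3p) can be loaded into an Argonaute protein. The loaded strand finds its target mRNAs mainly through the seed, bases 2 to 8 from its 5′ end, and lowers their translation or stability. miR-322 (the rodent counterpart of human miR-424) and miR-503 are relatives of miR-15 and miR-16, which restrain the cell cycle by lowering cyclins, Cdc25a and other drivers of division. The newborn thymus is an organ in which precursor cells divide intensely before they mature.

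The mature sequences show which members share a seed, and for that reason both arms of each member are given, as read from RefSeq (GRCm38.p6), from 5′ to 3′ with the seed in capitals. All 5 members had both arms in RefSeq, 10 sequences in total, each of 21 to 24 bases. The deposited counts are per gene, so they do not say which arm was sequenced.
miR-322-5p: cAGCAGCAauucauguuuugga
miR-322-3p: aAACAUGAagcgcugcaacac
miR-503-5p: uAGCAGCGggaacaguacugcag
miR-503-3p: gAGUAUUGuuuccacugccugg
miR-351-5p: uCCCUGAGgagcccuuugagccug
miR-351-3p: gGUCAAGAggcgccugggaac
miR-542-5p: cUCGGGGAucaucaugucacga
miR-542-3p: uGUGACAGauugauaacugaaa
miR-450b-5p: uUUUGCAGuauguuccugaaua
miR-450b-3p: aUUGGGAAcauuuugcaugcau

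The 10 seeds were all different, so the members did not repeat a single seed along the transcript. Within the cluster some seeds did recur. Mir450-1 and Mir450-2, which are not members, share the seed of miR-450a-5p, and miR-450b-3p has the seed of miR-450a-1-3p. Among the members, the closest pair was miR-322-5p and miR-503-5p. They shared bases 2 to 7 and parted at base 8 (G8A, counted from the 5′ end of miR-503-5p, with miR-322-5p second). Over the 22 positions compared, these 2 arms were the same at 11. In their hairpins, shown because the levels of these neighbours lay far apart, the capitals mark both mature arms.
Mir322 hairpin: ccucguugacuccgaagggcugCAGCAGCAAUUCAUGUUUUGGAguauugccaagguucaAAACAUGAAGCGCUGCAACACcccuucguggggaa
Mir503 hairpin: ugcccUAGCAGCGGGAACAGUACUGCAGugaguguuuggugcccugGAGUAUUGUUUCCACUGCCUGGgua
The Mir322 hairpin is 95 bases long (chrX:53054255-53054349, minus strand) and the Mir503 hairpin 71 (chrX:53053984-53054054, minus strand), in build GRCm38.

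Relatives outside the cluster, and both arms of Mir450-1, a gene within it that is not a member, are shown to make shared and differing seeds visible. The seed of miR-322-5p is that of miR-15 and miR-16, and the seed of miR-351-5p is that of miR-125, a family best known from blood stem and progenitor cells.
miR-15a-5p: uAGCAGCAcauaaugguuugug
miR-16-5p: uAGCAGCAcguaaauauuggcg
miR-125a-5p: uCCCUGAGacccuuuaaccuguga
miR-450a-5p: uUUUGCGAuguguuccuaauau
miR-450a-1-3p: aUUGGGAAcauuuugcauaaau
miR-322-5p equalled miR-15a-5p at 15 of 22 positions and miR-16-5p at 12 of 22. miR-351-5p equalled miR-125a-5p at 10 of 24 positions, and 7 of those were the seed. miR-450b-3p differed from the 3p arm of its neighbour Mir450-1 at 2 of 22 positions (G19A and C20A), both outside the seed, whereas their 5p arms differed at 7 of 22, among them bases 7 and 8 (A7G and G8A, from miR-450b-5p to miR-450a-5p).

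All 5 members lie on the minus strand within 6353 bases of chromosome X (53047997 to 53054349, GRCm38, GENCODE M21), and none overlapped another annotated gene. In the order of transcription the run is Mir322 (ENSMUSG00000065418.1), Mir503 (ENSMUSG00000076122.1), Mir351 (ENSMUSG00000065503.1), Mir542 (ENSMUSG00000076140.1), Mir450-2, Mir450-1 and Mir450b (ENSMUSG00000076050.1). Mir322 and Mir503 are only 200 bases apart, Mir503 and Mir351 630 bases, and Mir351 and Mir542 3767 bases, a gap that holds the noncoding RNA gene Gm28730. The noncoding transcript C430049B03Rik ends 696 bases upstream of Mir322, and the housekeeping gene Hprt lies 26337 bases beyond Mir450b on the plus strand. The hairpins of Mir450b, Mir450-1 and Mir450-2 had a GC content of 30.5%, 33.0% and 36.2%, and those of the other 4 genes of the run 50.5% to 54.9%.

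Mir322 was by far the most abundant gene of the cluster in the newborn thymus. It had 44434 counts in replicate 1 and 18947 in replicate 2, which is 16252 CPM (exact 95% Poisson interval 16101 to 16403) and 14697 CPM (14489 to 14908), with a mean of 15474 ± 1099. That placed it 19th and 20th among all counted genes. Both libraries thus put this gene near the top of the counted profile. Reads that map to more than 1 place (56.3% and 57.5% of all reads) were not counted to genes. Genes with copies elsewhere can thus be undercounted. The true rank of Mir322 can therefore be lower, and the shares given below smaller, by an unknown amount. In whole tissue, fewer cells of a type and less miRNA per cell cannot be told apart, which holds for every level given here.

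The other 4 members lay well below Mir322 in both libraries. Mir351 followed with 3468 and 2297 counts, or 1268 and 1782 CPM (mean 1525 ± 363). Mir542, whose 3p arm is known to target the survival factor survivin, had 1944 and 927 counts, or 711 and 719 CPM (715 ± 5.70). Mir542 was thereby the member most alike between the pups on this scale. Mir503 had 1165 and 439 counts, or 426 and 341 CPM (383 ± 60.5), and Mir450b had 623 and 259 counts, or 228 and 201 CPM (214 ± 19.1). The order Mir322, Mir351, Mir542, Mir503, Mir450b was the same in both libraries, and no member's pair of values overlapped that of its neighbour in the order. No gene-to-gene test was run. Since a read spans a mature arm of 21 to 24 bases, counts were not divided by hairpin length.

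**Figure D1:**
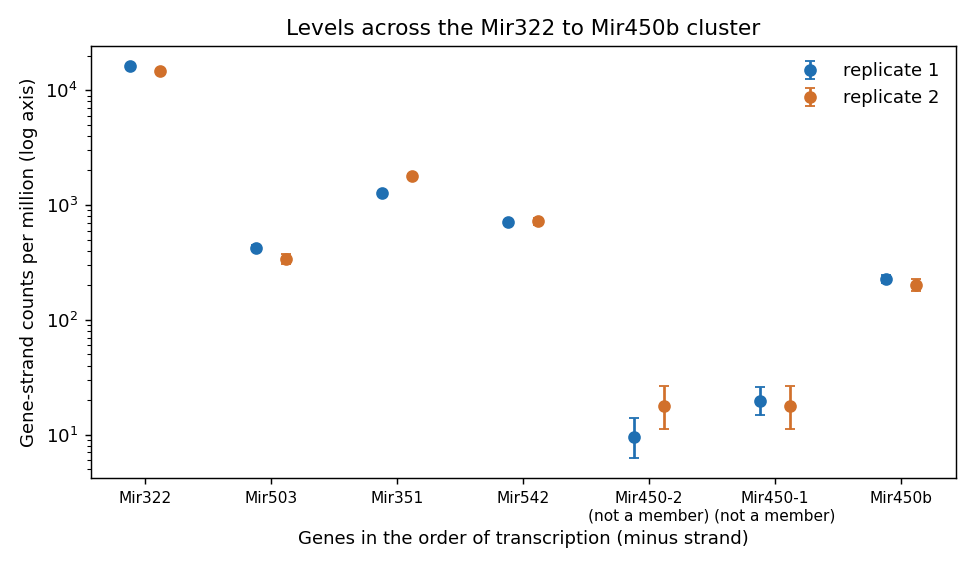
CPM on the gene strand (log axis) for the 7 genes of the run in the order of transcription, with 1 point per library and exact 95% Poisson intervals. Mir322 stands at 16252 and 14697, the other members lie between 201 and 1782, and Mir450-1 and Mir450-2 between 9.51 and 19.8.

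Together the 5 members took 1.83% ± 0.0810 of all counts on the gene strand, 1.89% in replicate 1 (95% Wilson interval 1.87 to 1.90) and 1.77% in replicate 2 (1.75 to 1.80). Mir322 supplied 86.1% and 82.9% of these counts, Mir351 6.72% and 10.04%, Mir542 3.76% and 4.05%, Mir503 2.26% and 1.92%, and Mir450b 1.21% and 1.13%. Without Mir322, the 4 others took 0.284% ± 0.0289. The cluster's share was therefore mostly the level of a single gene. None of the 7 genes of the run had a count on the opposite strand in either library, so reading both strands leaves these counts as they are.

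Ratios within a library need no scaling between libraries. Mir322 exceeded Mir503, its neighbour and near relative by seed, 38.1 times in replicate 1 (exact 95% interval 35.98 to 40.46) and 43.2 times in replicate 2 (39.3 to 47.6). It exceeded Mir542 22.9 and 20.4 times, and Mir450b 71.3 and 73.2 times. In these 3 ratios the intervals of the pups overlapped. The ratio of Mir322 to Mir351 was 12.8 (12.4 to 13.3) in replicate 1 and 8.25 (7.90 to 8.62) in replicate 2, and here they did not overlap.

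Every ratio with Mir351 differed between the pups beyond counting error. Of the 10 ratios between members, 5 had intervals that did not overlap between the libraries, and these included all 4 ratios with Mir351. These 4 use the same Mir351 counts, so they are not 4 separate observations. Mir351 exceeded Mir503 2.98 times in replicate 1 (2.78 to 3.18) and 5.23 times in replicate 2 (4.72 to 5.81), and Mir542 1.78 and 2.48 times. The remaining one was the ratio of Mir542 to Mir503, 1.67 (1.55 to 1.80) and 2.11 (1.88 to 2.37). The intervals cover only counting error in these 2 libraries, and reads that carry no molecular identifier need not be independent molecules.

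The remaining genes of the run, Mir450-1 and Mir450-2, are the neighbours of Mir450b and encode the same mature miR-450a-5p. Mir450-1 had 54 and 23 counts (18.8 CPM ± 1.35) and Mir450-2 26 and 23 (13.7 ± 5.89), so Mir450b exceeded Mir450-1 11.5 times in replicate 1 and 11.3 times in replicate 2. It exceeded Mir450-2 24.0 times (16.2 to 37.0) and 11.3 times (7.34 to 18.1), with intervals that overlapped. Their levels are uncertain. They share a stretch of 20 bases with each other, and reads that map to more than 1 place were tallied apart from genes in these tables. By contrast, no stretch of 20 bases of a member recurred in a miRNA gene elsewhere, and each of the 10 mature sequences was found in 1 GENCODE gene only, its own. The genome outside annotated transcripts was not searched.

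Uneven counts within a cluster were common in this tissue, and in only 1 other cluster did a single gene lead so strongly. Runs of miRNA genes on 1 strand, with starts at most 10 kb apart and at least 3 detected genes, numbered 12. The highest gene took 84.4% of the run's mean CPM here, against a median of 51.7% over the 12 runs, and a higher value was found only in the run of Mir23a and Mir24-2 (93.3%). Mir322 exceeded the next gene of its run 10.1 times (median over the runs 1.81). From Mir322 to Mir450-2 the fold of the means was 1132, the largest of the 12, followed by 989 for the run of Mir17. It was 1709 in replicate 1 alone and 824 in replicate 2 alone, where the run of Mir17 had 881 and 1139.6, so its first place did not hold in replicate 2. The rank rests on the uncertain Mir450 genes. Without genes that share 20 bases with another locus, an alternative chosen after seeing the data, the fold was 72.2, the fourth of 10 runs. The share of the highest gene (84.5%) and its lead over the next gene were then the largest of the 10. However, the run of Mir23a and Mir24-2, which ranked first in both before (93.3% and 18.9 times), was not among these 10. Its genes share 20 bases with other loci and were left out. These are descriptions of 2 libraries, and the runs were not compared by a test.

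**Figure D2:**
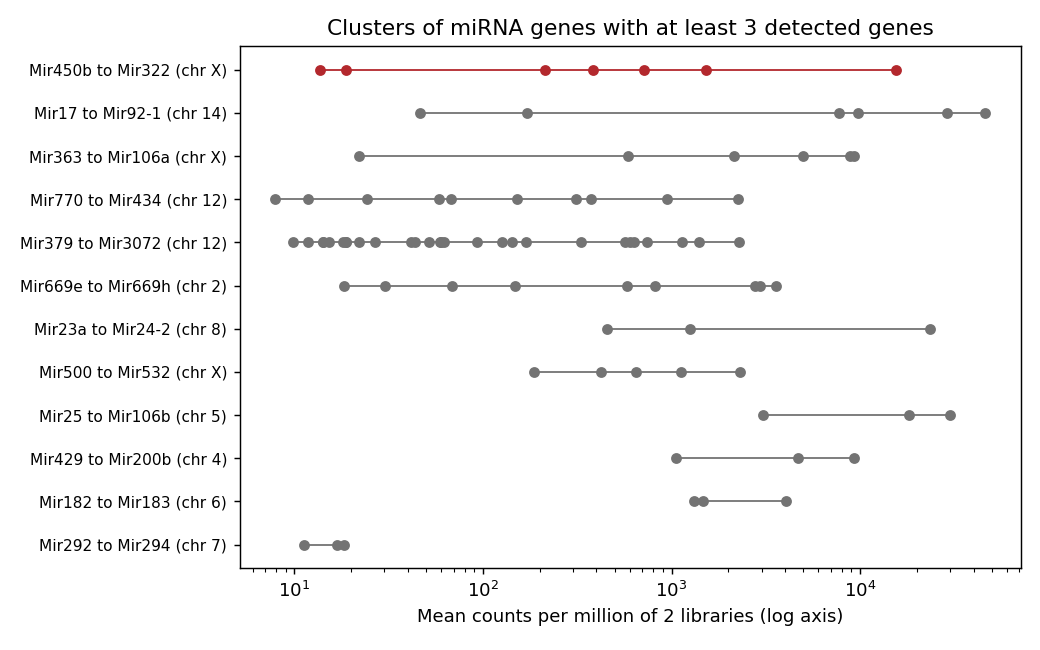
Mean CPM (log axis) of each detected gene, 1 point per gene, in the 12 runs of miRNA genes with at least 3 detected genes, ordered by the fold between the highest and the lowest gene. In the run that holds Mir322 (red), the highest gene lies at 15474 and the next at 1525.

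Among genes with the seed of miR-322-5p, Mir322 was counted at nearly the level of the main miR-15 and miR-16 genes. RefSeq gave this seed to 10 other genes, of which 5 had at least 10 counts in both libraries: Mir15a (17873 CPM ± 1534), Mir15b (17292 ± 1423), Mir16-1 (17585 ± 981), Mir16-2 (3178 ± 84.5) and Mir195a (365 ± 2.70). Mir195b, Mir6342, Mir6353 and Mir6419 had 0 counts in both libraries, which allows up to 1.10 CPM in replicate 1 and 2.33 in replicate 2 (3 counts each). The last, Mir497, was not among the counted genes under that symbol. Mir322 supplied 22.7% of the counted reads of the 6 detected genes in replicate 1 (22.5 to 22.8) and 20.5% in replicate 2 (20.2 to 20.7). This share is of counted reads only: Mir16-1 and Mir16-2 share 20 bases, so reads of miR-16-5p can be missing and the share of Mir322 can be too high, by an unknown amount.

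Mir322 stood in nearly the same ratio to Mir15b in both pups, but not to Mir15a. The ratio of Mir322 to Mir15b was 0.888 (0.877 to 0.900) in replicate 1 and 0.902 (0.885 to 0.920) in replicate 2. Against Mir15a it was 0.968 (0.955 to 0.981) and 0.775 (0.761 to 0.790), and against Mir16-1, the neighbour of Mir15a, 0.962 and 0.804. The summed level of the 6 genes was 71714 and 71819 CPM, on the scale of total counts.

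Mir351 had the highest counted level among the genes with its seed. RefSeq gave this seed to 5 other genes, of which Mir125a had 1115 CPM ± 98.7, Mir125b-1 447 ± 12.9 and Mir125b-2 206 ± 8.57, while Mir6367 and Mir6394 had 0 counts in both libraries. Mir351 exceeded Mir125a 1.21 times in replicate 1 (1.15 to 1.28) and 1.504 times in replicate 2 (1.41 to 1.61). It took 42.7% and 49.3% of the counted reads of the 4 detected genes. The 2 Mir125b genes share 20 bases, so miR-125b can be undercounted and the share of Mir351 too high.

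**Figure D3:**
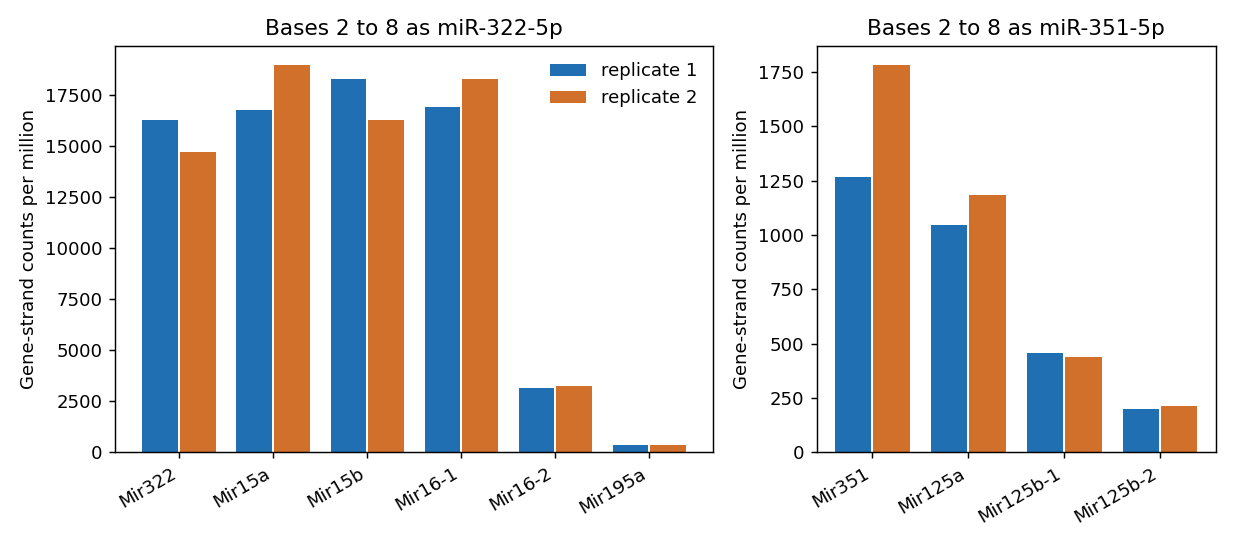
CPM on the gene strand (linear axes from 0) for the detected genes with the seed of miR-322-5p (left) and of miR-351-5p (right), with 1 bar per library. Mir322 lies close to Mir15a, Mir15b and Mir16-1 in both libraries, and Mir351 has the highest counted level of its group in both. Reads of the Mir16 and Mir125b genes can be missing.

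The seeds of the other members had few detected relatives. For miR-542-5p it was shared with Mir6966 (0 counts in both libraries), for miR-450b-3p with Mir6352 (0 in both) and Mir450-1, and for miR-542-3p, miR-450b-5p, both 3p arms of Mir351 and Mir503, and miR-322-3p with no other RefSeq gene. With bases 2 to 7 alone, miR-503-5p joined Mir322 and its 10 relatives, and miR-322-3p matched Mir218-1 (12 and 0 counts) and Mir496b (0 in both).

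Between the pups, members of the same cluster went in opposite directions. After TMM scaling, the 2 counts of a gene entered an exact binomial test (two-sided) with Benjamini-Hochberg adjustment over all 294 tested genes. This test called 43.5% of all tested genes, 20.1% higher and 23.5% lower in replicate 2, or 59 and 69 genes (72 and 52 when scaled to total counts). Of the 5 members, 1 was called higher (Mir351), 3 were called lower (Mir322, Mir503 and Mir450b) and Mir542 did not pass. With 5 members, 4 calls are few to set beside that background, and the test compares 2 libraries by counting error alone.

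With replicate 2 divided by replicate 1, the log2 ratio of Mir351 was 0.42 (95% interval from 0.35 to 0.50, adjusted exact binomial p = 2.6e-26). Of all 294 tested genes, 39 had a ratio as high or higher, Mir351 included, and 5 of these were among the 96 genes that averaged 1000 CPM or more. Mir322 had a log2 ratio of -0.21 (-0.24 to -0.19, adjusted exact binomial p = 5.8e-64) and Mir503 of -0.39 (-0.55 to -0.23, adjusted exact binomial p = 3.8e-06). A ratio as low as that of Mir503 or lower was found in 30 of the 294 genes, Mir503 included. Mir322 and Mir503 thus both lay lower in replicate 2, while Mir351, the gene next to them, lay higher. Mir450b had -0.25 (-0.46 to -0.04, adjusted exact binomial p = 0.046), a call that was lost under 5 of the alternatives tried, and Mir542 had -0.05 (-0.16 to 0.06, adjusted exact binomial p = 0.55).

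The median over the 5 members was -0.21, against -0.03 over all tested genes. Scaling to total counts in place of TMM moved the median of all tested genes to 0.04, put Mir542 at 0.02 and ended the call of Mir450b (-0.18, adjusted exact binomial p = 0.17), but left the calls of Mir322, Mir503 and Mir351. A negative binomial test in edgeR called 0.340% of the tested genes, 1 of 294, which was the heart muscle gene Mir208b (log2 ratio 3.01, adjusted negative binomial p = 3.6e-12). Its dispersion (biological coefficient of variation 0.154) was estimated over all tested genes from the same 2 libraries that it compares. A difference of ordinary size between them therefore cannot pass, and a call lost there does not show that the levels were alike. No member was called: the adjusted p was 1 for each, and their unadjusted p ran from 0.18 for Mir351 to 0.88 for Mir542. With 1 library per pup, these differences have no replicate check.

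**Figure D4:**
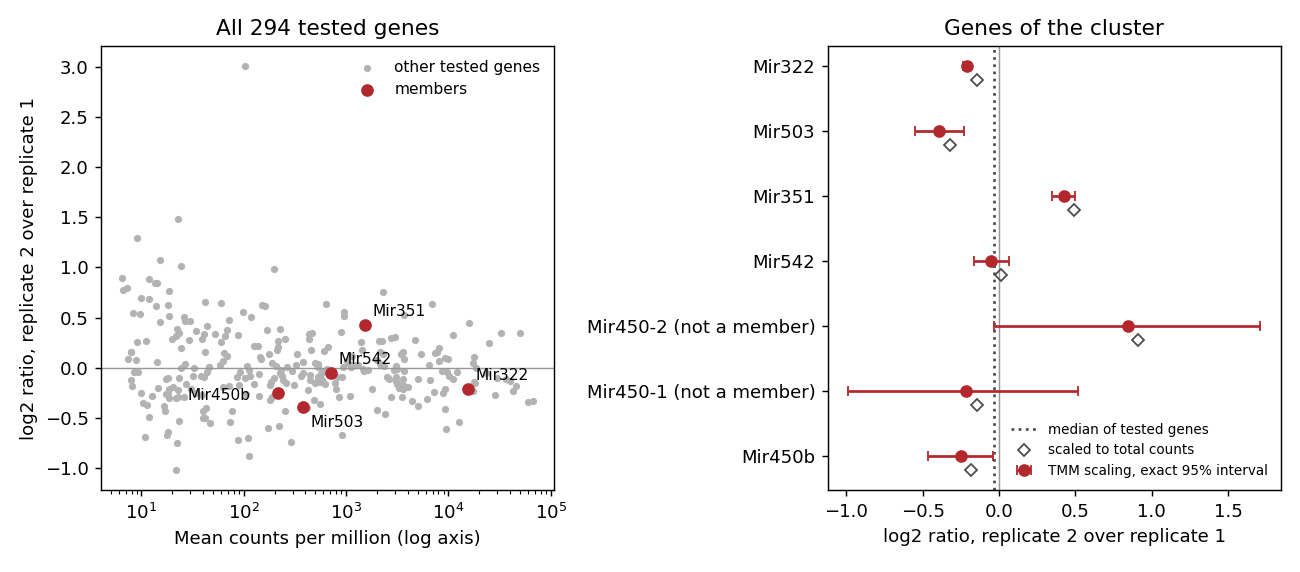
Left, log2 ratio of replicate 2 over replicate 1 against mean CPM (log axis) for the 294 tested genes, with the 5 members in red. Right, the same ratio for the 7 genes of the run with exact 95% intervals, diamonds for scaling to total counts and a dotted line at the median of the tested genes: Mir351 lies to the right of 0 and Mir322 and Mir503 to the left under both scalings.

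Seed relatives and other X-linked genes gave the following values in the same comparison. Of 5 tested miR-15/16 relatives, 2 were called higher (Mir15a 0.11 and Mir16-1 0.05), 1 lower (Mir15b -0.23), and 2 did not pass, with a median log2 ratio of -0.01. Of the 3 miR-125 relatives of Mir351, Mir125a was called higher (0.11), and Mir125b-1 (-0.12) and Mir125b-2 (0.02) did not pass. Of 27 other tested genes on chromosome X, 2 were called higher and 12 lower, with a median of -0.14. In the nearest of these, the run of Mir106a to Mir363 305429 bases away, 1 of 6 genes was called higher and 3 lower, with log2 ratios from -0.25 to 0.39.

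Among the 11 runs with at least 3 genes of 100 or more counts in both libraries, the spread of log2 ratios within the cluster, 0.81 from Mir503 to Mir351, was the second largest (median 0.38), and 5 of the 11 runs held genes called in both directions. Genes of 1 run thus often differed in ratio in these libraries, and the cluster lay at the wide end.

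The tissue label was compared with marker genes. Mir181a-1, a miRNA of developing thymocytes, had 37220 and 36043 CPM, and Mir205, a miRNA of thymic and other epithelium, had 9346 and 10405. Mir124a-1, Mir124a-2 and Mir124a-3, loci of a neuronal miRNA, had 0 counts, though they share sequence with each other. Of the neural genes Mir9-2 and Mir9-3, which also share sequence, the first had 0 counts and the second 1 in each library. Several marker lists differed between the pups beside the members: the 6 mesenchyme and smooth muscle genes summed to 45733 CPM in replicate 1 and 60634 in replicate 2 (2 of 5 tested called higher, median log2 ratio 0.26, none at 0), and Mir126a of endothelium had 28049 and 37298. The 6 counted thymocyte genes summed to 54363 and 49676 CPM (2 called higher, 4 lower, median -0.20, none at 0). The Mir181 genes of this list and the Mir199 genes of the mesenchyme list share 20 bases with other loci. Their reads can be missing, so both sums can be too low. The 8 counted striated muscle genes summed to 488 and 745 CPM (2 of 3 tested called higher, with Mir1a-1, Mir133a-1 and Mir133a-2 at 0). The genes at 0 share 20 bases with other loci, so their reads can be missing and the sum can be too low. Mir206 of skeletal muscle made up most of the counted sum and was nearly level (445 and 442 CPM). The 2 that were called were Mir208b (21.9 and 185 CPM) and Mir499 (11.7 and 34.1), which like Mir208a lie within myosin heavy chain genes. Mir208a had 6 and 105 counts (2.19 and 81.4 CPM) and was below the minimum for the test. The 6 epithelial genes summed to 36005 and 37225 CPM (3 called higher, 1 lower, none at 0), the 2 erythroid genes to 231 and 168, and Mir223 of myeloid cells had 919 and 787. Mir122 of liver had 77.9 and 120 CPM, and Mir375 of endocrine cells had 6677 and 6444. The part of these cells in the ratios of Mir351, Mir322 and Mir503 was not tested.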

How the data were processed

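Small RNA (under 30 bases, per the labels) of 2 newborn thymuses was sequenced. Each library has a deposited table of unnormalized counts of reads for every miRNA gene, mapped to mm10 and counted over GENCODE M4, per the deposited text files. The aligner was not given in the sources used here, nor was the counter. The second of 3 unnamed count columns (reads on the gene strand, from the values) was used. Reads totalled 10642220 and 4892171, with 2734133 and 1289151 on miRNA genes. Multimapping reads (56.3% and 57.5%), unmapped reads (10.6% and 9.17%) and reads outside miRNA genes (2.99% and 2.57%) stayed out of library sizes. Of 1973 identifiers, 1894 matched GENCODE M21, a later release than M4; the 79 without a match were at 0 on the gene strand.

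CPM used the gene-strand total. Genes that reached 10 counts in each library were tested. TMM factors came from edgeR 4.0.16 under R 4.3.3. Exact binomial tests with Benjamini-Hochberg adjustment at 0.05 used scipy 1.17.1 (Python 3.11.15). They were tried on simulated Poisson counts with set folds, which otherwise vary by counting error alone, as the test assumes. That trial therefore does not show how the test behaves on libraries of different pups. With 1 group there is no group term. Sequences came from RefSeq (GRCm38.p6). Named genes are the members, the other genes of their run, genes that share a seed, the genes next in level and marker genes. Alternatives were the column of both strands, count minimums of 1 and 100, DESeq2 1.42.0 size factors, total counts, totals without the most abundant gene, an edgeR negative binomial test, gaps of 3 and 50 kb, and leaving out each library. The members and lists were chosen with earlier results of these data known.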

Additional observations from a re-analysis of the deposited data

Results flagged for a closer look

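Counts lay on the strand opposite to an annotated gene at a locus of the miR-322-5p seed. Mir497b (chromosome 11, 70234692 to 70234816, minus strand) had 2 and 0 counts on its own strand and 836 and 379 on the opposite one, above the 3 counts that a count of 0 allows, in a column that the comparisons did not use. RefSeq places Mir497, whose 5p arm has the seed of miR-322-5p, on the plus strand there (70234717 to 70234800). Scaled by the gene-strand total, these reads amount to 306 CPM in replicate 1 and 294 CPM in replicate 2.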

How the results depend on the processing

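Levels and shares followed the denominator. With reads on either strand, the mean level was 13233 CPM for Mir322, 612 for Mir542 and 183 for Mir450b, and the 5 members took 1.57%. Without the most abundant gene, Mir322 had 16607 CPM, Mir542 767, and the members took 1.96%. The log2 ratio of Mir542 changed sign to 0.016 when scaled to total counts. The call of Mir450b was lost with total counts (-0.18), DESeq2 size factors (-0.22), reads on either strand (-0.24) and a minimum of 100 counts (-0.22), with adjusted exact binomial p from 0.055 to 0.17, and the cause was not tested. In the edgeR negative binomial test, Mir322 (-0.21), Mir503 (-0.39), Mir351 (0.42) and Mir450b (-0.25) kept their ratios and lost their calls, and 1 gene was called in place of 128 (15 unadjusted). That test takes its dispersion from the 2 libraries it compares, so these losses say little about the members. The split of called genes was 72 higher and 52 lower with total counts, against 59 and 69. The fold from the highest to the lowest gene of the run was 40.4 with gaps of at most 3 kb, where the run ends at Mir351, and 72.2 without genes that share 20 bases. With 2 libraries, leaving out 1 moves a mean by less than 1 SD by construction, so it says nothing about stability, and it leaves no log2 ratio to compute. No paired analysis was possible because there is 1 group.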

Other observations

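With 2 libraries, no likeness of pattern across samples can be measured, so the genes next in mean level are given. Mir322 (15474 CPM ± 1099) lay between Mir99a (15865 ± 3947) and Mir128-1 (12775 ± 2913), and Mir351 (1525 ± 363) between Mir148a (1624 ± 32.8) and Mir708 (1505 ± 26.0). Mir542 (715 ± 5.70) lay between Mir541 (744 ± 12.0) and Mir31 (672 ± 89.9). Mir503 (383 ± 60.5) lay between Mir221 (384 ± 2.61) and Mir434 (375 ± 23.3), and Mir450b (214 ± 19.1) between Mir187 (218 ± 29.0) and Mir330 (214 ± 34.4). Apart from Mir541 above Mir542, each of these genes differed from its member by less than the larger of the 2 SDs.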
